A study of Mus musculus with 6 samples.

Results

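The mouse mitochondrial chromosome carries 37 annotated genes, and 15 of them were among the 27179 entries of the deposited expression table. Members were chosen by position alone: every entry of the table that lies on the mitochondrial chromosome was taken, with no use of its measured level. They comprise all 13 protein-coding genes and both ribosomal RNAs. The 22 transfer RNAs are not analysed here. Their annotated lengths run from 59 to 75 bases, all shorter than the 100-base reads of the libraries.

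RNA was sequenced from nephron progenitors, the embryonic kidney cells that give rise to nephrons, sorted from E16.5 kidneys by the green fluorescence of a Six2-driven reporter. Control pools carried the transgene Six2TGC, and mutant pools carried Six2TGC together with floxed alleles of the microRNA cluster miR-17~92 (Six2TGC;miR-17~92fl/fl), so cells of both genotypes expressed the transgene, in which Six2 sequences drive GFP and Cre recombinase. There were 3 libraries per genotype, every one from progenitors pooled over 4 embryos. No floxed allele is named for the controls and no strain background is given, so effects of the deletion and of genetic background carried with the floxed alleles, the maternally inherited mitochondrial genome included, cannot be told apart. The comparison asks which transcripts differ between progenitors with and without the cluster.

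The mitochondrial genome is read as long transcripts from both strands, which are cut into separate ribosomal, messenger and transfer RNAs, in large part at the transfer RNAs that lie between them. Its 2 ribosomal RNAs form the core of the mitochondrial ribosome, and its messenger RNAs encode membrane subunits of respiratory complexes I, III and IV and of ATP synthase, all of which also need many subunits encoded in the nucleus. Copies of mitochondrial sequence are also present in the nuclear chromosomes of many species, and a short read from such a stretch can match both places.

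On the mitochondrial chromosome of mm10 the ribosomal RNAs mt-Rnr1 (12S, positions 70 to 1024) and mt-Rnr2 (16S, 1094 to 2675) come first. They are followed in order by the complex I genes ND1 (2751 to 3707) and ND2 (3914 to 4951), the complex IV genes COX1 (5328 to 6872) and COX2 (7013 to 7696), the ATP synthase genes ATP8 (7766 to 7969) and ATP6 (7927 to 8607), and COX3 (8607 to 9390). The complex I genes ND3 (9459 to 9806), ND4L (9877 to 10173), ND4 (10167 to 11544), ND5 (11742 to 13565) and ND6 (13552 to 14070) and the complex III gene CYTB (14145 to 15288) complete the set. ND6 lies on the opposite strand from the other 14 members. ATP8 and ATP6 overlap by 43 bases, ND5 and ND6 by 14 on opposite strands, and ND4L and ND4 by 7. The sources used here give neither the counting rule for overlaps nor the use of strand. Strand bears on the overlap of ND5 and ND6. As both strands are transcribed, it also bears on reads from the opposite strand in any member, ND6 included. How reads inside these overlaps were assigned is therefore not known. Whether overlapping neighbours on the same strand have separate transcripts was not tested, so values are per gene and not per transcript.

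Nuclear copies bear on how these entries can be read. In the GENCODE annotation of the same build, 7 pseudogenes on the minus strand of chromosome 1, at chr1:24611535-24616197, match mitochondrial positions 6381 to 11042, from within COX1 to within ND4. The nuclear stretch is 4663 bases long and the mitochondrial one 4662. The copies of COX2 (Gm28661), ATP6 (Gm10925), COX3 (Gm28437), ND4L (Gm10222) and ND4 (Gm28439, the first 876 bases of the gene) had 0 differing bases over all positions compared. The copy of ND3, Gm28438, differed at 1 of 345 bases, the substitution T3C, counted from 1 at the gene's first base, with the mitochondrial base given first. Expression of the 7 copies themselves is not analysed here. The start of ND3 and of its copy are shown because ND3 is the member for which the genotypes differed most, and the capital marks the base that differs. Sequences are 5′ to 3′ from transcripts of that annotation, at chrM:9459-9558 on the plus strand and chr1:24613020-24613119 on the minus strand.
mt-Nd3: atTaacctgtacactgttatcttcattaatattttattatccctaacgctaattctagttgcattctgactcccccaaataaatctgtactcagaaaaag
Gm28438: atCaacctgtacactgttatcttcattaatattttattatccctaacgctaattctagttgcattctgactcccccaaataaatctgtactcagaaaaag

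The edge of the shared stretch lies inside COX1. Its copy Gm29216 covers positions 1054 to 1545 of the gene and differed at 6 of 492 bases (T1056A, C1057T, A1059G, A1060G, C1062A and A1066T), all of them at the start of the copy. The 60 bases at that edge are shown, with differing bases in capitals, from chrM:6381-6440 on the plus strand and chr1:24616138-24616197 on the minus strand. After the last of these, at position 1066, no base of the copy differed.
mt-Co1: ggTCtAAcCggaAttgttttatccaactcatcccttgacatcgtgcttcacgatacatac
Gm29216: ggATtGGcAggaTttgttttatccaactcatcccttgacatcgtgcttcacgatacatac

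Sharing was measured as the percentage of a gene's 100-base words, the length of a read, that also occur in annotated nuclear transcripts. It was 99.9% for COX3, 99.5% for COX2 and for ATP6, 98.5% for ND4L, 97.6% for ND3, 60.8% for ND4 and 30.8% for COX1. ND2 shared 3.2%, and ND1, ATP8, ND5, ND6, CYTB and both ribosomal RNAs shared 0%. ATP8 lies opposite a gap between annotated copies, at chr1:24614652-24614884. The gap has the same length, 233 bases, as the mitochondrial stretch between the same bases of COX2 and ATP6, positions 7694 to 7926. Its share of 0% is therefore a statement about annotated transcripts alone, and the nuclear genome itself was not searched. Further pseudogenes on chromosome 2 (Gm13341, Gm13340 and Gm13339) and chromosome 13 (Gm4076) held at most 48.0% of their 31-base words in common with the mitochondrial chromosome. The treatment of reads that match several places is not given in the sources used here. Levels of the 5 genes with over 95% sharing are uncertain in both directions for that reason.

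Library depth, worked out from the deposited values, ran from 27602025 to 36134381 reads. In the targeted locus, Mir17, the first microRNA of the cluster, had 31, 26 and 16 reads in controls and 2, 0 and 0 in mutants. Mir17hg, the host transcript of the cluster, went the other way, from 44.0 ± 9.71 RPKM in controls up to 212 ± 41.1 in mutants (SD, n = 3 each). The log2 fold change of Mir17hg was 2.26 (limma adjusted p 4.93e-05). The progenitor regulators Six2 (57.0 to 104 RPKM over the 6 libraries) and Cited1 (15.5 to 27.9) were present in every library. Over all entries, 422 of 13463 tested genes differed between genotypes. Sums of tubule and of macrophage markers did not overlap between genotypes. The summed level of 8 tubule markers was 3.85 to 4.70 RPKM in controls and 6.87 to 19.5 in mutants. In mutant replicate 3, the highest, Slc12a1 alone had 8.28 RPKM. The sum of 9 macrophage markers was 5.10 to 8.02 and 12.4 to 14.9. Of tested markers 1 of 4 in tubule (Slc12a1) and 3 of 5 in macrophage (Fcer1g, Ctss and Tyrobp) passed the limma test as higher. No listed marker of these cells was at 0 in all libraries. The sums for renal vesicle, podocyte, ureteric bud, interstitium, endothelium and erythroid markers overlapped between genotypes. In renal vesicle 1 of 7 tested markers (Cdh6) passed as higher, and in the others 0. The sum for 8 progenitor markers was 624 to 666 RPKM in controls and 454 to 545 in mutants, with calls in both directions: Meox1 was lower (limma adjusted p 0.00271) and Tmem100 higher (0.0441, lost in 7 of 18 alternatives, with adjusted p up to 0.194 without mutant replicate 2). In sorted pools fewer cells of a type and less RNA per cell cannot be told apart, and the part of these markers in the mitochondrial values was not tested.

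Mitochondrial levels ran from 8.38 RPKM for ND3 in control replicate 3 to 211536 for mt-Rnr2 in mutant replicate 2. RPKM, reads scaled to gene length and library depth, is a level per length. It lets genes be set side by side, with less certainty where words are shared with nuclear transcripts. That holds for the 5 genes with over 95% sharing and for part of COX1 and ND4. Averaged over the 6 libraries, mt-Rnr2 stood at 171236 RPKM and mt-Rnr1 at 46567. Among protein-coding genes COX1 (6970) was highest, followed by CYTB (5247), ND1 (2779), ND4 (1885), ND5 (1604), ND2 (583) and ND6 (301). The lower end held ATP6 (151), COX2 (123), COX3 (52.2), ND4L (36.0), ATP8 (21.1) and ND3 (18.2). Neighbours in this order held it in all 6 libraries for 8 of the 12 pairs. CYTB over ND1, ND1 over ND4, ATP6 over COX2 and ATP8 over ND3 held it in 5 of 6, so those neighbours keep no single order. For ATP8 and ND3 the order of the group means differed by genotype. They were 17.3 and 8.75 RPKM in controls and 24.8 and 27.7 in mutants.

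**Figure D1:**
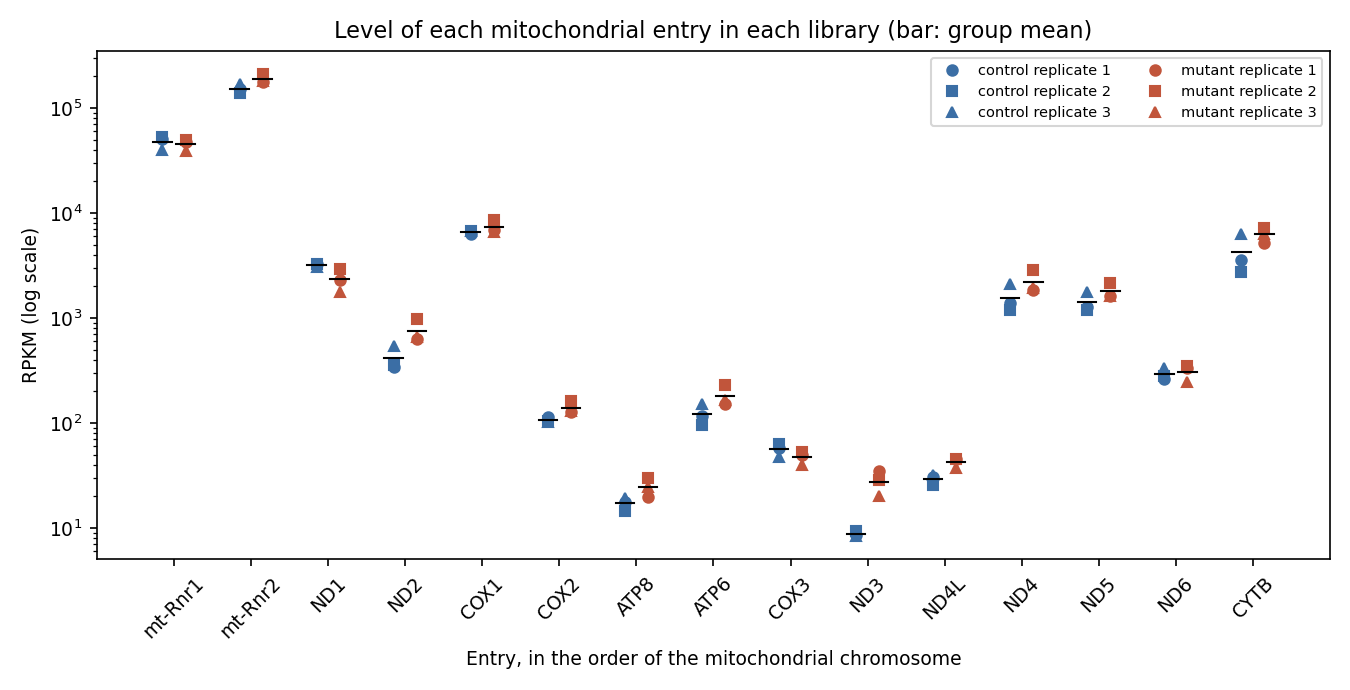
Level of each of the 15 entries in RPKM (vertical axis, log scale) in each library, in the order of the mitochondrial chromosome (horizontal axis); points are libraries, blue for control and red for mutant, with a marker shape per replicate number, and bars are group means. The ribosomal RNAs lie at 39395 RPKM or more in every library, and ND3 shows the widest gap between genotypes relative to its spread, 8.38 to 9.30 RPKM in controls against 19.99 to 34.7 in mutants.

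Levels were set beside sharing. The 5 genes with over 95% of their words in nuclear transcripts (COX2, ATP6, COX3, ND3 and ND4L) lay between 8.38 and 228 RPKM over all libraries, with a median of gene means of 52.2. The 6 genes with under 5% (ND1, ND2, ATP8, ND5, ND6 and CYTB) lay between 14.7 and 7260, with a median of 1094, and ATP8 was the lowest of them. COX1 and ND4, which share part of their length, lay between 1197 and 8598. Over the 13 protein-coding genes Spearman's rho between sharing and mean level was -0.44, a description over genes of the same libraries and of neighbouring positions. COX2 and COX3, membrane subunits of the same complex as COX1, had 123 and 52.2 RPKM where COX1 had 6970. Whether handling of reads with several matches sets these levels was not tested.

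**Figure D2:**
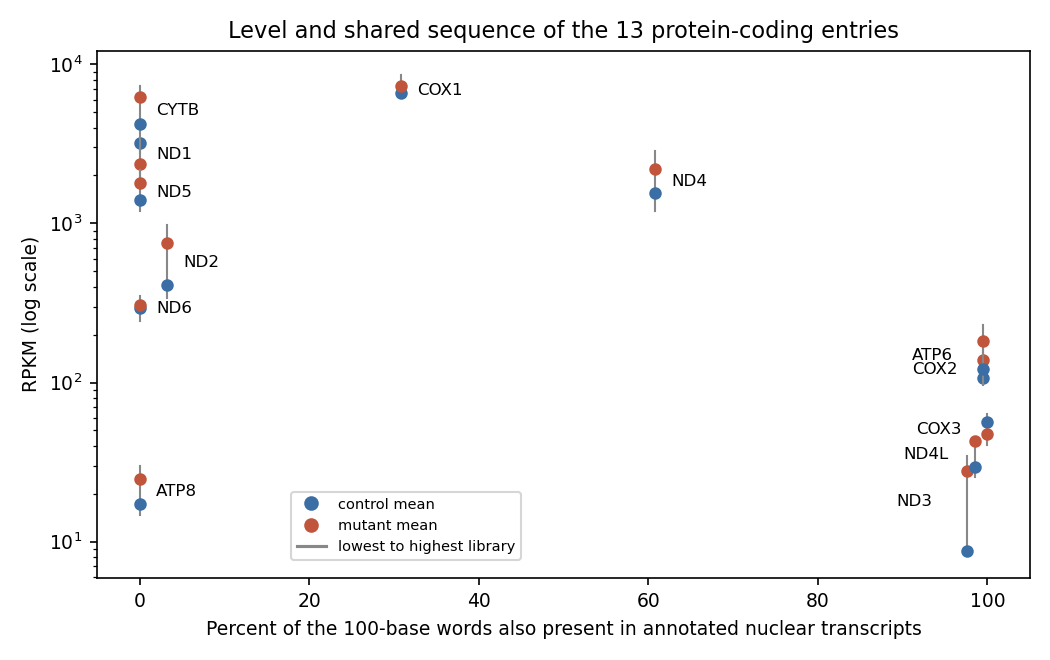
Mean RPKM of the 13 protein-coding entries (vertical axis, log scale) against the percentage of their 100-base words that also occur in annotated nuclear transcripts (horizontal axis); blue points are control means, red points mutant means, and grey lines run from the lowest to the highest library. The 5 genes at the right edge lie at or below 228 RPKM, while at the left edge ATP8 lies with them and the other 5 genes lie at 244 RPKM or more.

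The ribosomal RNAs took a large part of every library, and the 16S RNA made up most of it. mt-Rnr2, the large-subunit RNA, had 151443, 138463 and 168073 RPKM in control replicates 1, 2 and 3 and 175184, 211536 and 182719 in mutant replicates 1, 2 and 3. Every mutant library was above every control library. On the log2 scale the difference was 0.31, its standard error 0.61 and its limma adjusted p 0.785. That standard error carries the fitted trend of variance with level, as do those of the other members, and is not library spread alone. Without that trend the limma adjusted p of mt-Rnr2 was 0.293, so the difference did not pass either way. mt-Rnr1, the small-subunit RNA, had 50392, 52959 and 39401 RPKM in controls and 47254, 50000 and 39395 in mutants, and the groups overlapped throughout. Its log2 fold change of -0.059 (standard error 0.42, limma adjusted p 0.949) turned positive in 5 alternatives, up to 0.078, and so gives no direction.

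The ratio of the ribosomal RNAs, which come from the same long transcript, differed among libraries of a genotype. mt-Rnr2 over mt-Rnr1, as a ratio of RPKM, was 3.01, 2.61 and 4.27 in controls and 3.71, 4.23 and 4.64 in mutants. Control replicate 3 lay inside the mutant range, with the lowest mt-Rnr1 level of the controls and their highest mt-Rnr2 level. Together they took 28.8%, 27.0% and 30.4% of reads in controls, and the mutant shares were 32.2%, 38.2% and 32.7%, with a difference of group means of 5.68 percentage points. The difference lay in mt-Rnr2, at 24.2% ± 2.35 of reads in controls and 30.03% ± 3.04 in mutants (SD, n = 3 each), while mt-Rnr1 was at 4.54% ± 0.688 and 4.35% ± 0.526.

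**Figure D3:**
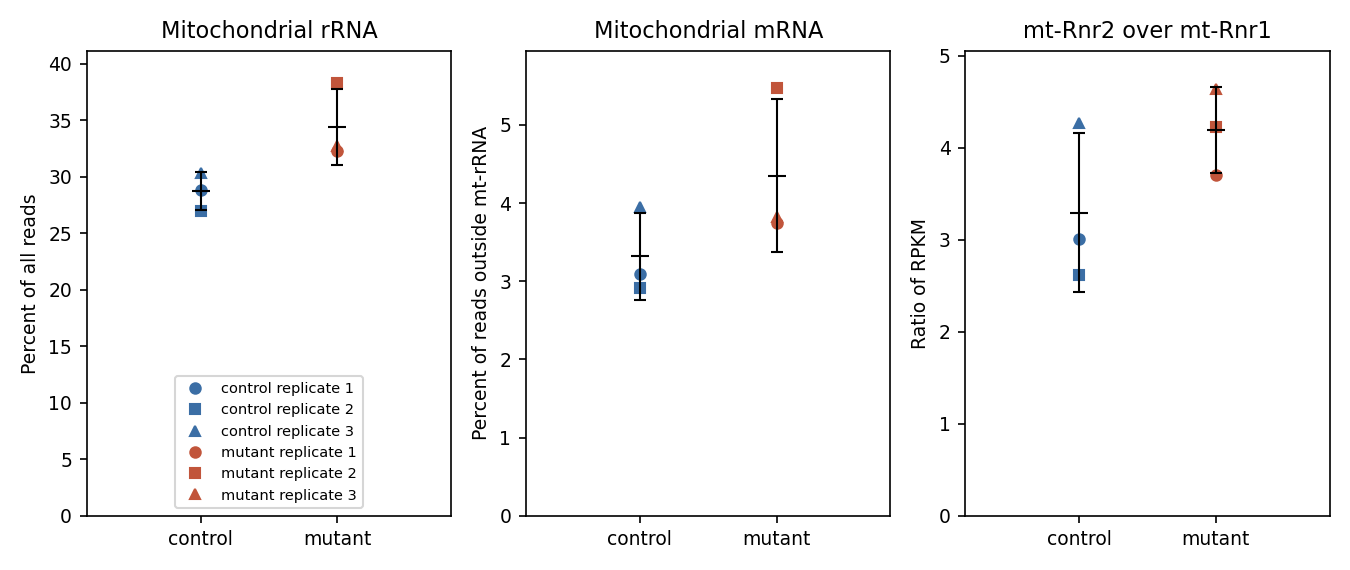
Left, percentage of all reads on the ribosomal RNAs of the mitochondrion. Middle, percentage of the reads outside them that fell on the 13 protein-coding genes. Right, ratio of mt-Rnr2 to mt-Rnr1 in RPKM. Points are libraries with a marker shape per replicate number, and bars are the mean and SD of 3 libraries. In the left panel the mutant libraries (32.2% to 38.2%) lie above the controls (27.0% to 30.4%), and in the other panels control replicate 3 lies within the mutant range.

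The share of the messenger RNAs as a class overlapped between genotypes. They took 2.20%, 2.13% and 2.76% of reads in controls and 2.54%, 3.38% and 2.58% in mutants, where control replicate 3 lay between mutant replicates. Of reads outside ribosomal RNA their share was 3.09%, 2.91% and 3.96% in controls and 3.74%, 5.48% and 3.83% in mutants, overlapping through control replicate 3. Ribosomal reads per messenger read were 13.1, 12.7 and 11.02 in controls and 12.7, 11.3 and 12.7 in mutants, a mean of 12.3 ± 1.09 against 12.2 ± 0.803 (SD, n = 3 each). Both classes were highest in mutant replicate 2, which was the highest library for 11 of the 15 members. Control replicate 2 was the lowest for 7.

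ND3, a small membrane subunit of complex I, the NADH dehydrogenase that passes electrons into the chain, was the member that rose. It had 8.58, 9.30 and 8.38 RPKM in controls and 34.7, 28.4 and 19.99 in mutants, from 88, 117 and 82 reads and from 365, 275 and 192 reads. Every mutant library was far above every control, and mutant replicate 3 was the lowest of the mutants. The mean went from 8.75 ± 0.487 to 27.7 ± 7.36 RPKM (SD, n = 3 each), which is 1.57 ± 0.18 (standard error) as a log2 fold change, at a limma adjusted p of 0.000662. Over all tested genes 1.32% were called higher in mutants and 1.81% lower. The call for ND3 stood in each of the 18 alternatives run for it, with adjusted p from 7.63e-05 to 0.0227 and log2 fold changes from 1.40 to 1.79. Summed over libraries the ratio of read rates was 3.17 (exact 95% interval 2.77 to 3.64, counting error only). Over the 345 bases compared, ND3 and its chromosome 1 copy, whose starts are shown above, differ only at T3C. The last bases of ND3 and the sequence beside the gene were not compared. An origin of the reads in the copy was not tested. COX3, the neighbour on the mitochondrial chromosome across a transfer RNA and a member of the same chromosome 1 stretch, was not called and had a log2 fold change of -0.24. The other genes of that stretch with over 95% sharing lay the other way, at 0.53 (ND4L, the neighbour on the other side), 0.58 (ATP6) and 0.37 (COX2). Their groups did not overlap either, and none of them was called. The RPKM ratio of ND3 to COX3 was 0.147, 0.147 and 0.175 in controls and 0.696, 0.533 and 0.497 in mutants.

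ND2 and ND4L, both membrane subunits of complex I, were higher in all mutant libraries but missed the threshold. ND2 had 338, 358 and 539 RPKM in controls and 626, 974 and 662 in mutants. Control replicate 3 was the control closest to the mutants. Its log2 fold change was 0.88 (standard error 0.22, limma adjusted p 0.0558), with adjusted p from 0.00210 to 0.292 over the alternatives. It passed in 3 of them: a filter at 1 RPKM (0.0494), voom on recovered reads (0.00435) and the fit without control replicate 3 (0.00210). ND4L had 30.7, 25.5 and 31.9 RPKM in controls and 44.9, 45.6 and 37.6 in mutants, with no overlap between groups. Its log2 fold change was 0.53 (standard error 0.14, limma adjusted p 0.0638, range 0.0201 to 0.257), and it passed in 5 alternatives. The ratio of its read rates was 1.47 (exact 95% interval 1.34 to 1.61, counting error only).

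ND1, the complex I subunit whose gene follows the ribosomal RNAs, was the member with the lowest fold change. It had 3285, 3267 and 3076 RPKM in controls and 2324, 2948 and 1771 in mutants, so every mutant library was below every control. The controls lay close together, at 3209 ± 116 RPKM, and the mutants were spread more widely, at 2348 ± 589 (SD, n = 3 each). The log2 fold change, -0.48 with standard error 0.23, did not pass (limma adjusted p 0.269, range 0.0624 to 0.696). The upper end of that range came from the fit with no filter on low values, where the standard error was 0.54. ND4, a central membrane subunit, had 1402, 1197 and 2089 RPKM in controls and 1855, 2855 and 1915 in mutants, overlapping through control replicate 3, and the log2 fold change was 0.51 (limma adjusted p 0.286). ND5, the largest of the mitochondrial complex I subunits, had 1278, 1196 and 1754 RPKM in controls and 1623, 2165 and 1609 in mutants, and again control replicate 3 lay within the mutant range (log2 fold change 0.36, limma adjusted p 0.364). ND6, encoded on the opposite strand, had 262, 281 and 337 RPKM in controls and 333, 350 and 244 in mutants. Mutant replicate 3 was the lowest of all 6 libraries for ND6, and its log2 fold change (0.067, limma adjusted p 0.845) changed sign when control replicate 1 or mutant replicate 2 was left out, to -0.010 and -0.032.

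CYTB, cytochrome b, the core electron-carrying subunit of complex III, varied most among the controls. It had 3590, 2755 and 6326 RPKM in controls and 5182, 7260 and 6370 in mutants, and control replicate 3 was above mutant replicate 1. The SD of 1868 RPKM among controls was close in size to the difference of group means, 4224 against 6270. The log2 fold change was 0.65 (standard error 0.31, limma adjusted p 0.278), and 0.98 without control replicate 3 (adjusted p 0.0188).

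The complex IV genes, which encode the catalytic core of cytochrome c oxidase, did not pass the test. COX1, the subunit that carries the haem and copper site where oxygen is reduced, had 6356, 6752 and 6689 RPKM in controls and 6862, 8598 and 6562 in mutants. The groups overlapped, and its log2 fold change was 0.14 (limma adjusted p 0.761). COX2, the subunit that takes electrons from cytochrome c, had 114, 104 and 103 RPKM in controls and 127, 161 and 129 in mutants. Its groups did not overlap, but at a log2 fold change of 0.37 and a standard error of 0.14 it did not pass (limma adjusted p 0.181). COX3 had 58.4, 63.4 and 47.9 RPKM in controls and 49.8, 53.4 and 40.2 in mutants, and its groups overlapped (log2 fold change -0.24, limma adjusted p 0.390).

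ATP6 and ATP8 encode the proton channel subunit of ATP synthase and its small membrane partner. These genes overlap by 43 bases and had different RPKM values. Whether the values are levels of separate transcripts was not tested. ATP6 had 116, 96.6 and 150 RPKM in controls and 151, 228 and 166 in mutants. Control replicate 3 and mutant replicate 1 were nearly level, at 150.4 and 150.7 RPKM. ATP8 had 17.8, 14.7 and 19.5 RPKM in controls and 19.8, 29.99 and 24.7 in mutants, where control replicate 3 and mutant replicate 1 were again the closest libraries. Their log2 fold changes were 0.58 (limma adjusted p 0.137) and 0.50 (0.148). The ratio of read rates of ATP8, from 327 control and 431 mutant reads, was 1.44 (exact 95% interval 1.25 to 1.67, counting error only).

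Across the 15 members, all of which passed the filter on low values, 12 had log2 fold changes above 0 and 3 below (mt-Rnr1, ND1 and COX3), and 1 passed the test. Their median was 0.37, and that of the 13 protein-coding genes 0.50, where the median of all tested genes was -0.125. With median-of-ratios scaling the median of all genes was -0.012, and calls over all genes went from 178 higher and 244 lower to 282 and 156. Relative to the median of all genes, 13 of the 15 members lay above it. Groups did not overlap for 7 members that were higher in mutants (mt-Rnr2, ND2, COX2, ATP8, ATP6, ND3 and ND4L), where 7.06% of all tested genes were higher without overlap. They did not overlap for 1 member that was lower (ND1), where 18.0% of all tested genes were. An unadjusted p under 0.05 in limma was reached by 6 members, all of them higher in mutants, and by 19.6% of all tested genes in either direction.

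Control replicate 3 had the greatest effect on these calls. Without it 7 members passed as higher, where 2.0% of all tested genes did (1083 genes in all, 270 of them higher). They were ND2 (limma adjusted p 0.00210), ND3 (0.000131), ATP6 (0.0137), CYTB (0.0188), ND4L (0.0201), ND4 (0.0388) and ATP8 (0.0450). Leaving out any other library left ND3 as the only member called. It was the highest control for mt-Rnr2, ND2, ATP8, ATP6, ND4L, ND4, ND5, ND6 and CYTB, and the lowest for mt-Rnr1, ND1, COX2, COX3 and ND3.

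**Figure D4:**
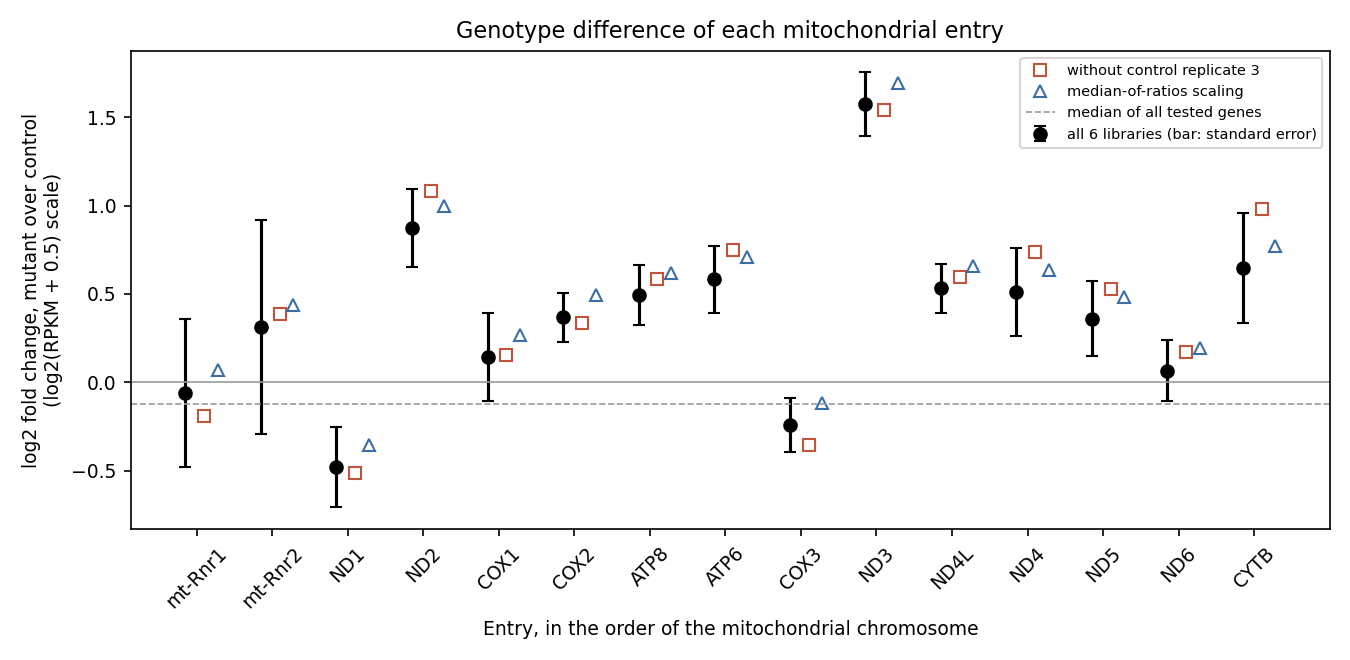
Log2 fold change of mutant over control on the log2(RPKM + 0.5) scale (vertical axis) for each entry in the order of the mitochondrial chromosome; black points with standard error bars are from all 6 libraries, red squares from the fit without control replicate 3, and blue triangles from median-of-ratios scaling. The solid line marks 0 and the dashed line the median of all tested genes, -0.125. ND3 stands highest at 1.57 and ND1 lowest at -0.48 in the fit on all libraries.

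ND1 and ND2, which neighbour each other across a cluster of transfer RNAs, went opposite ways in the make-up of the messenger RNA pool. As a share of reads on the 13 genes, which does not depend on library scaling, ND1 took 14.3%, 14.7% and 10.7% in controls and 8.77%, 8.34% and 6.58% in mutants. ND2 took 1.59%, 1.75% and 2.03% in controls and 2.56%, 2.99% and 2.67% in mutants. Neither gene's groups overlapped. The share of ND3 was far smaller, at 0.0131% ± 0.00235 in controls against 0.0346% ± 0.0113 in mutants (SD, n = 3 each), also without overlap. In percentage points the differences of group means were -5.32 for ND1, 0.949 for ND2 and 5.50 for CYTB. The RPKM ratio of ND1 to ND2 was 9.72, 9.11 and 5.70 in controls and 3.71, 3.03 and 2.68 in mutants. An exact permutation test of 3 against 3 libraries cannot give a two-sided p below 0.1, and these shares are given as a description with no test.

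COX1 and CYTB together supplied most of the messenger reads in every library. COX1 took 44.6%, 49.1% and 37.5% in controls and 41.8%, 39.3% and 39.4% in mutants. CYTB took 18.6%, 14.8% and 26.3% in controls and 23.4%, 24.6% and 28.3% in mutants. Both overlapped between genotypes through control replicate 3 alone, the control with the lowest COX1 and the highest CYTB share. The 7 complex I genes together took 35.9%, 35.2% and 35.5% in controls and 33.9%, 35.2% and 31.4% in mutants. ATP synthase genes took 0.362% ± 0.0336 of messenger reads in controls and 0.452% ± 0.0290 in mutants (SD, n = 3 each), without overlap.

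**Figure D5:**
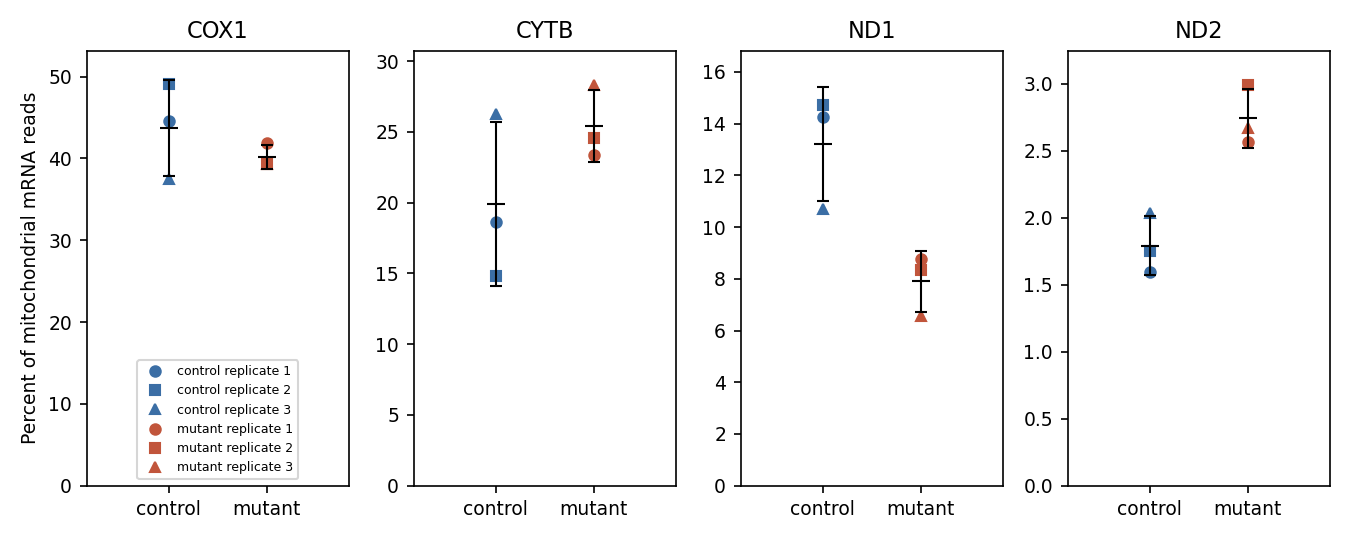
Share of COX1, CYTB, ND1 and ND2 among the reads on the 13 mitochondrial protein-coding genes, in percent, by genotype. The vertical axis runs from 0, with a scale of its own in each panel. Points are libraries with a marker shape per replicate number, and bars are the mean and SD of 3 libraries. ND1 lies at 10.7% or more in controls and at 8.77% or less in mutants, ND2 at 2.03% or less and 2.56% or more, and COX1 and CYTB overlap.

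Nuclear genes for the same complexes were compared in the same fit. Of 37 tested genes listed as nuclear complex I subunits 0 passed, with a median log2 fold change of -0.23. At an unadjusted p under 0.05, a level that 19.6% of all tested genes reached, there were 2. The list includes Ndufa4 (log2 fold change -0.27), which has also been assigned to complex IV. The counts were likewise 0 of 3 in complex II, 0 of 8 in complex III, 0 of 10 in complex IV and 0 of 15 in ATP synthase, with medians of -0.18, -0.19, -0.17 and -0.23. At an unadjusted p under 0.05 these had 1, 1, 2 and 0 genes. Among the genes of lowest p were Ndufs1, an iron-sulfur subunit of complex I (control 38.4 ± 3.51 and mutant 30.3 ± 3.62 RPKM, SD, n = 3 each), Cyc1, cytochrome c1 of complex III (61.5 ± 9.52 and 46.7 ± 2.99), and Cox6b1 of complex IV (51.5 ± 8.01 and 38.7 ± 1.38). Their log2 fold changes were -0.34, -0.38 and -0.40, with limma adjusted p of 0.203, 0.179 and 0.152. Cox7c of complex IV lay the other way, at 18.3 ± 1.75 RPKM in controls and 24.4 ± 5.20 in mutants without overlap (SD, n = 3 each). Its log2 fold change was 0.39, and its limma adjusted p 0.212. Groups did not overlap for Ndufs1, Cyc1 and Cox6b1 either. Without overlap 7.06% of all tested genes were higher in mutants and 18.0% lower. The mitochondrial messengers had a median of 0.50 and these nuclear lists lay below the median of all genes. The difference between the lists was not tested.

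The machinery that makes and uses mitochondrial RNA was compared in the same way. Of all tested genes 1.32% were called higher, 1.81% were called lower and 19.6% had an unadjusted p under 0.05. Of 19 genes of mitochondrial transcription and DNA replication 0 passed, and 1 had an unadjusted p under 0.05. Tfam, which packages mitochondrial DNA and activates its promoters, had 28.6, 30.3 and 19.2 RPKM in controls and 23.5, 19.4 and 19.5 in mutants (log2 fold change -0.29, limma adjusted p 0.364). Polrmt, the mitochondrial RNA polymerase, was at 4.09 ± 0.257 and 3.15 ± 0.655 RPKM (limma adjusted p 0.301), and Tfb2m, its promoter-opening partner, at 7.99 ± 0.843 and 8.91 ± 0.527 (0.550; SD, n = 3 each). Of 23 genes of RNA cleavage, polyadenylation and stability 0 passed, and 2 had an unadjusted p under 0.05. They included Lrpprc, which stabilises mitochondrial messengers, with a control level of 29.3 ± 2.93 and a mutant level of 23.3 ± 2.83 RPKM (SD, n = 3 each). Its limma adjusted p was 0.231.

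Of 19 genes of ribosomal and transfer RNA modification 1 passed, as lower, and 5 had an unadjusted p under 0.05. The shares over all tested genes were 1.81% called lower and 19.6% with an unadjusted p under 0.05. Mettl17, a factor of the small subunit of the mitochondrial ribosome, had 12.0, 11.8 and 13.6 RPKM in controls and 5.46, 7.45 and 8.84 in mutants, with no overlap. It fell by 0.77 on the log2 scale (standard error 0.17, limma adjusted p 0.0352), and the call was lost in 9 of 18 alternatives, with adjusted p from 0.0153 to 0.147. Among them were the fits without control replicate 1 (0.0941), mutant replicate 1 (0.127) and mutant replicate 2 (0.147) and median-of-ratios scaling (0.0767). Of 82 tested mitochondrial ribosomal proteins 0 passed and 7 had an unadjusted p under 0.05 (median log2 fold change -0.20). The same counts were 0 and 2 for 32 translation factors and transfer RNA synthetases. Of 8 tested regulators of mitochondrial biogenesis 0 passed and 1 had an unadjusted p under 0.05. Nrf1, an activator of nuclear genes for mitochondria, was at 10.2 ± 0.655 RPKM in controls and 7.94 ± 1.93 in mutants (limma adjusted p 0.273). Ppargc1a, the coactivator that drives mitochondrial biogenesis, was low in all libraries, at 0.884 ± 0.145 and 1.33 ± 0.283 RPKM (SD, n = 3 each; limma adjusted p 0.300).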

How the data were processed

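Sorted progenitors gave total RNA with an integrity number above 9, which was amplified (Ovation RNA-Seq System V2) and sequenced as paired 100-base reads, per the labels' protocols. The submitters' processing notes name the build mm10 and the tools FastQC and limma. The authors deposited RPKM values, normalized for gene length and library depth, for 27179 Entrez Gene entries in 6 libraries. The sources used here do not give the counting tool, the strand setting or the treatment of reads with several matches. Column names carry the word subread, per the file headers.

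Entries were placed by gene ID. RPKM values fall on a grid of whole reads, from which depth (1 value per library fitted, all within 0.005 of a whole read on the mitochondrial genes) and reads were worked out with Python 3.11.15. The recovered reads summed to 99.71% to 99.76% of depth, and on simulated data reads were right for 990 of 1000 genes. Here "reads" may be reads or read pairs. The exact intervals pool the libraries of a group, treat reads as independent and hold no spread between libraries. Amplified reads are not independent molecules, so these intervals may be too narrow even for counting error.

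The comparison of genotypes used limma 3.58.1 (R 4.3.3), two-sided, with a trend of variance on level, on log2(RPKM + 0.5) of all genes whose mean RPKM reached 0.5. P-values were adjusted over all of them (Benjamini-Hochberg, 0.05). This scale understates the change of low genes. On simulated data for this comparison (13463 genes) 8, 34, 47 and 47 of 50 genes each were called at 1.5, 2, 3 and 4 fold, with 6 false calls. The simulated noise was independent for each gene and library. It holds no shift of a library common to many genes, so these counts do not cover false calls from such shifts. Members and lists were chosen with earlier results of these data known. Named genes were all members, the genes of a list past the threshold or of lowest p, set regulators, the targeted locus and nuclear copies. Sequence sharing used all annotated GENCODE transcripts outside the mitochondrial chromosome.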

Additional observations from a re-analysis of the deposited data

How the results depend on the processing

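As reported, 422 genes were called, 1 of them mitochondrial (ND3). Over all genes the count was 143 with no filter, 686 with voom on recovered reads, and 143 and 730 at adjusted p thresholds of 0.01 and 0.1. Leaving out each library in turn gave 148 to 1083 genes, 1083 without control replicate 3 and 148 without mutant replicate 2, with 210, 202 and 243 when control replicate 1, mutant replicate 1 or mutant replicate 3 was dropped. Among members the count was 2 with a filter at 1 RPKM or voom (ND2 and ND3), 2 with quantile normalization, depth without mitochondrial ribosomal RNA, depth without any mitochondrial reads or array quality weights (ND3 and ND4L), 3 at a threshold of 0.1, and 1 to 7 when a library was left out. For mt-Rnr1 the log2 fold change was 0.067 with median-of-ratios scaling, 0.062 and 0.078 with those depths, and -0.19 to 0.042 when a library was left out. For ND6 it was -0.032 to 0.23 when a library was left out. The COX2 share of messenger reads, 0.0220 percentage points higher in mutants, was -0.00830 without control replicate 3 (range -0.00830 to 0.0420 when a library was left out). The messenger share of reads rose in difference from 0.470 to 1.03 percentage points when ribosomal reads were left out of the denominator. Quantile normalization gives 0 for COX1 and the ribosomal RNAs by construction, since their ranks are the same in every library. Beyond the construction of each alternative the cause was not tested.

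Replicate numbers are not stated to pair libraries, and same-numbered libraries correlated at 0.0526, 0.157 and 0.153 in their deviations from group means, not all above 0.1. Each library correlated best with its own number, a hint from the data and not from the design. With a replicate block 393 genes were called, 1 of them mitochondrial, and the adjusted p of ND3 was 0.000698. Shares of transfer RNA were not run, since these genes are not analysed here. Depth limits ATP8 and ND3 most, with 107 to 170 and 82 to 365 reads per library.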
